A study of Mus musculus with 12 samples.

Results

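The genes of MHC class I antigen presentation were examined in 7 lists of open chromatin from transformed mouse embryonic fibroblasts (MEFs). The 8 members were Nlrc5, Irf1, B2m, Tap1, Tap2, Tapbp, Psmb8 and Psmb9. A member locus was any region with a peak in at least 1 list that overlapped a member's gene body or the 50000 bp on either side, which gave 84 of the 147985 loci in all. The gene set was chosen by values of these same lists, namely the counts of Nlrc5 loci that closed with MEK inhibition or were open in Hras.Myc alone. The open and closed states of member loci are therefore given as a description, without a test. Of the 84 loci, 8 lay at a promoter of a member, 3 in an exon, 11 in an intron, 23 in the upstream flank and 39 in the downstream flank. The nearest protein-coding TSS belonged to a member at 31 loci and to another gene at 53, and 20 of the latter were promoter loci of that other gene.

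MHC class I molecules carry peptides from the inside of the cell to its surface, where cytotoxic T cells inspect them. The immunoproteasome, a form of the proteasome in which Psmb8 and Psmb9 replace constitutive catalytic subunits, cuts proteins into peptides. The transporter made of Tap1 and Tap2 moves the peptides into the endoplasmic reticulum, tapasin (Tapbp) holds the empty class I molecule to that transporter, and B2m is the light chain of every class I molecule. Nlrc5 is the transactivator of class I genes, and Irf1 is a transcription factor induced by interferon gamma. Fibroblasts carry class I molecules at a low level that interferons raise, through ISRE and GAS elements bound by IRF and STAT factors and through kappaB elements bound by NF-kappaB.

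The study made a panel of transformed MEF lines and asked which factors control their reprogramming. Its ATAC-seq compared 3 of these lines with wildtype MEFs. Hdac7SA.Mef2d cells were immortalized with Mef2d and a form of Hdac7 in which 3 serines are replaced by alanine, Hras.E1A cells with the Ras oncogene and adenoviral E1A, and Hras.Myc cells with Ras and Myc. Untreated cells of each line, and Hras.E1A and Hras.Myc cells given the MEK inhibitor PD0325901 (PD) for 2 days, had 2 libraries each, and the same Hras lines given the histone deacetylase inhibitor TSA for 2 days had 1 each. The labels name OG2 MEFs as the source of all groups and the growth text an ICR background. The study's methods assign the OG2 lines to all experiments outside a few listed figures, and its ATAC-seq figures are not among those listed. No line with Ras alone and no wildtype MEFs were analysed here, and whether the libraries came from separate cultures is not stated. Each library held about 50000 cells. The lists held between 56774 peaks in Hras.Myc with PD and 119251 in Hdac7SA.Mef2d, and both PD lists were shorter than those of their untreated lines (59823 and 81201 peaks in Hras.E1A, 56774 and 67738 in Hras.Myc).

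The fibroblast label was checked at promoters. Of 10 fibroblast markers, between 7 and 10 had an open promoter in each list. Of 8 blood and macrophage markers, 1 to 3 did, and Ptprc, Spi1, Itgam and Cd3e were among those closed in all 7 lists. Of 5 endothelial markers, 1 to 3 had an open promoter, with Cdh5 and Tie1 closed in every list, and of 6 epithelial markers 4 or 5 did, with Krt5 closed in every list. The part of other cell types in the results was not tested.

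Sequences are printed for the promoters of B2m and Irf1, because each held interferon-type and kappaB-type letters. Of the 24 loci away from promoters that closed with PD in a line, 9 held an AP-1-type match, and 6 of these are printed. Not printed are the Nlrc5 exonic locus at 49999 bp and the Irf1 loci 32526 and 14761 bp upstream. RefSeq promoters on GRCm38.p6 were found for 6 of the 8 members, with 7 promoters in total, including a second one for Irf1 that is not printed. The 250 bases upstream of the RefSeq start are shown for B2m (chr2:122147437-122147686, plus strand) and Irf1 (chr11:53769764-53770013, plus strand). Capitals mark an ISRE-type match (GAAANNGAAA), a GAS-type match (TTCNNNGAA), a kappaB-type match (GGGANNNNCC) and CCAAT, on either strand. Overlapping matches on opposite strands run together.
B2m promoter: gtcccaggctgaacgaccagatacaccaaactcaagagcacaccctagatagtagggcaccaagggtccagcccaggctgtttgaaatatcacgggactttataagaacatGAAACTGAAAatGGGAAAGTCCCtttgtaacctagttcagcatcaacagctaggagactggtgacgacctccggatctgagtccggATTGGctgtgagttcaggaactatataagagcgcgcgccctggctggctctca
Irf1 promoter: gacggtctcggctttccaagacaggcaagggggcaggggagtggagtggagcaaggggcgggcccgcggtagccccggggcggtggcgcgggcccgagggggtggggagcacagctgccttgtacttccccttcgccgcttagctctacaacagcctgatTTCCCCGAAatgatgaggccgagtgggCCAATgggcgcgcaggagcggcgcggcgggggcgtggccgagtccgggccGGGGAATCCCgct

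The B2m promoter held the ISRE-type, kappaB-type and CCAAT matches in that order towards its start site. The printed Irf1 promoter held a GAS-type match, a CCAAT box and a kappaB-type match next to its start site. The second RefSeq promoter of Irf1 (chr11:53770223-53770472) held no ISRE-type, GAS-type, kappaB-type or CCAAT match. Matches were counted over the whole RefSeq promoter sequences, which run longer than the 250 bases shown, for all promoters and for the members. Among all 32851 RefSeq promoters, 3.44% held the ISRE-type letters, 8.30% the GAS-type, 20.7% the kappaB-type and 37.4% CCAAT. Of the 7 member promoters, 1 held the ISRE-type letters (B2m), 2 the GAS-type (Irf1 and Psmb8), 2 the kappaB-type (B2m and Irf1) and 5 CCAAT. The CCAAT matches of Tap1 and Psmb9 are the same site (chr17:34187334-34187338), since their promoters overlap on opposite strands. The Psmb8 promoter is not printed.

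The central 200 bases are shown for 4 loci near Nlrc5 and 2 near B2m, all given on the plus strand of GRCm38.p6. Capitals mark AP-1-type matches (TGANTCA, the element bound by Fos and Jun proteins) and, where present, ISRE-type and GAS-type matches on either strand. Of the Nlrc5 loci, the first 3 closed with PD in both Hras lines and the fourth closed with PD in Hras.Myc. The first B2m locus closed with PD in Hras.Myc but opened with PD in Hras.E1A, and the second closed in both lines. All loci are named by the distance of their centre from the first annotated TSS of the gene.
Nlrc5 intron, 82545 bp downstream (chr8:94516836-94517035): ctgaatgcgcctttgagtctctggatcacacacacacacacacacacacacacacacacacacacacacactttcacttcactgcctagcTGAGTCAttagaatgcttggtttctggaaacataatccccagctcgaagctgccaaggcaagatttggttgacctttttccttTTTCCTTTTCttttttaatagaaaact
Nlrc5 downstream flank, 130220 bp (chr8:94564511-94564710): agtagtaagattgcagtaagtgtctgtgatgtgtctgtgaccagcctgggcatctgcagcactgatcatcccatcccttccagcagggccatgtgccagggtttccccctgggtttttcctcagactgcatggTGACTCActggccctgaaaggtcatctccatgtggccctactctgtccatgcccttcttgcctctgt
Nlrc5 downstream flank, 137699 bp (chr8:94571990-94572189): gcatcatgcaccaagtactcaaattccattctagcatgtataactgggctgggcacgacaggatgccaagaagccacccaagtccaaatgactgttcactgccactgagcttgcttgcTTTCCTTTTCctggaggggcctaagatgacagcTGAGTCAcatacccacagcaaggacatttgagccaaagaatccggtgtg
Nlrc5 intron, 2820 bp downstream (chr8:94437111-94437310): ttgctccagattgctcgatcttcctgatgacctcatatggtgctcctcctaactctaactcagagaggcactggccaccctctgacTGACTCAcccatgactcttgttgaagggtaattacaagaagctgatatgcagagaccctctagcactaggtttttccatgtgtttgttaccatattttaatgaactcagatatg
B2m downstream flank, 16795 bp (chr2:122164381-122164580): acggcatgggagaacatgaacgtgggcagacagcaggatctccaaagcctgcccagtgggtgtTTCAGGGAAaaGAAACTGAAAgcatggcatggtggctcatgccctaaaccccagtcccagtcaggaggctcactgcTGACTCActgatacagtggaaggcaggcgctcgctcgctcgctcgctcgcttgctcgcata
B2m downstream flank, 32546 bp (chr2:122180132-122180331): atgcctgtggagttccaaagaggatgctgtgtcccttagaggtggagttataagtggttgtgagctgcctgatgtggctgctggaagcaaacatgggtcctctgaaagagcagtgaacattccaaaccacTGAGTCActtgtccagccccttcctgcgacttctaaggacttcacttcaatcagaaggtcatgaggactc

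The promoters of all 8 members were open in all 7 lists. There were 8 such promoter loci, since Tapbp had 2 and a single locus between the divergently transcribed Tap1 and Psmb9 served both genes. None of the 8 closed with PD or TSA in either line, which allows a share closed of up to 36.9% (exact upper limit). Open promoters are common in these lists: 71.9% of all promoter loci, and 20.2% of all loci, were open in every list. With each list held to its highest 56774 scores, the length of the shortest list, the promoter loci of B2m, Nlrc5, Irf1 and Psmb8 stayed open in all 7 lists. The Tap1 and Psmb9 locus was then open in 6 lists, that of Tap2 in 4 and those of Tapbp in 1 and 2. Score percentiles, the rank of a peak's score among the peaks of its own list, were used to compare the promoters, because the scale of the score is not stated.

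At the transactivators, the Nlrc5 promoter (chr8:94434118-94434517) stood at percentile 85.2 in Hdac7SA.Mef2d, 59.3 in untreated Hras.E1A, 83.8 with PD and 47.9 with TSA, and at 55.7 in Hras.Myc, 67.7 with PD and 86.2 with TSA. The Irf1 promoter (chr11:53769726-53770125) stood at 64.0, 51.1, 55.1, 67.6, 44.1, 52.0 and 87.3 in the same order of lists. Both promoters had a higher percentile in the PD list than in the untreated list of each Hras line. With TSA the Nlrc5 promoter was lower than untreated in Hras.E1A and higher in Hras.Myc, whereas the Irf1 promoter was higher in both.

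The B2m promoter (chr2:122147399-122147798) stood at percentile 56.9 in Hdac7SA.Mef2d, 63.9 in Hras.E1A, 81.1 with PD and 91.4 with TSA, and at 56.1 in Hras.Myc, 81.8 with PD and 89.0 with TSA. Its percentile was higher in each of the 4 treated lists than in any of the 3 untreated ones. The Psmb8 promoter (chr17:34197528-34197927), in the same order, stood at 75.0, 51.8, 91.2, 88.4, 71.9, 57.9 and 93.5. The promoter shared by Tap1 and Psmb9 (chr17:34187238-34187637) stood at 36.2, 44.4, 72.4, 59.5, 45.7, 67.0 and 78.7. The Tap1 and Psmb9 promoter was, like that of B2m, higher in each treated list than in the untreated ones, while Psmb8 was lower with PD than without in Hras.Myc.

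The promoter loci of Tap2 and Tapbp ranked below the other 5 in every list, except that Tap2 stood just above Irf1 in Hras.E1A with PD. The Tap2 locus (chr17:34204298-34204697), which lay 771 bp inside the gene from its TSS, stood at 30.7, 30.8, 55.5, 19.9, 23.9, 44.6 and 7.82. The locus at the Tapbp TSS (chr17:33919377-33919776) stood between 2.21 and 13.7 over the 7 lists, and the second Tapbp locus (chr17:33920273-33920672) between 3.21 and 17.6. The stronger open locus at this gene was the promoter of its neighbour Zbtb22 (chr17:33915780-33916179), at percentiles 52.7 to 74.7, where the annotated gene body of Tapbp also begins. The median of the 8 promoter loci moved from 47.8 to 63.9 with PD and 53.7 with TSA in Hras.E1A, and from 44.9 to 55.0 and 82.5 in Hras.Myc. Over all promoter loci the corresponding medians were 48.3, 54.7 and 55.5 in Hras.E1A and 50.0, 53.6 and 68.7 in Hras.Myc, so promoters in general also ranked higher in the treated lists. Without replicates, no spread can be set against any of these differences.

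**Figure D1:**
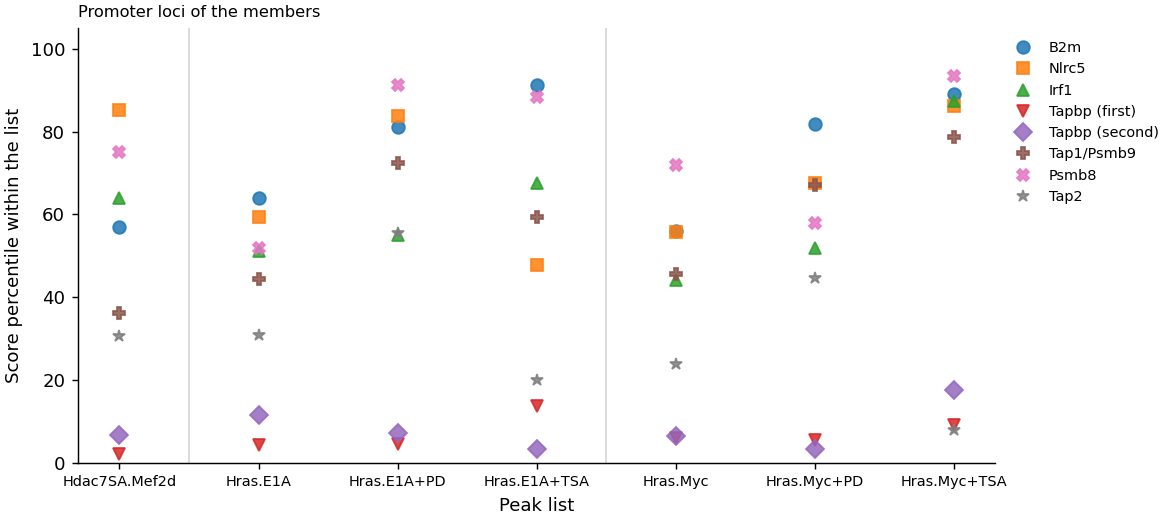
Score percentile within each list (vertical axis, 0 to 100) of the 8 promoter loci of the members in the 7 peak lists (horizontal axis), with 1 symbol for each locus and grey lines between the 3 cell lines. Every locus has a value in every list, the 2 Tapbp loci stay at or below 17.6, and the B2m locus is higher in the 4 treated lists (81.1 to 91.4) than in the 3 untreated lists (56.1 to 63.9).

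Interferon-type elements were counted in the central 200 bp of the loci, without regard to their state. The ISRE-type match was found in 4 of the 8 member promoter loci (50.0%, exact 95% interval 15.7 to 84.3) and in 1.62% of all promoter loci. The 4 were those of B2m (GAAACTGAAA), Nlrc5 (GAAACTGAAA, on the minus strand), Tap2 (GAAAGCGAAA) and the Tapbp TSS, where the matches GAAAATGAAA and GAAAGTGAAA overlapped. The kappaB-type match was found in 5 of 8 (62.5%, 24.5 to 91.5) against 19.6% of all promoter loci, and the GAS-type match in 2 of 8, at Irf1 and Psmb8, against 3.90%. In the central 100 bp the ISRE-type match was in 1 of 8 (12.5%, 0.316 to 52.7) against 0.675% of all promoter loci, the kappaB-type match in 2 of 8 (25.0%, 3.19 to 65.1) against 10.1%, and the GAS-type match still in 2 of 8 against 1.89%. No member promoter held the AP-1-type match (0 of 8, an upper limit of 36.9%), which 6.52% of all promoter loci held. Over all 84 member loci, ISRE-type matches were in 7 (8.33%, 3.42 to 16.4) against 2.39% of all loci. The kappaB-type match was in 18 (21.4%, 13.2 to 31.7) against 9.95%, and the GAS-type match in 6 (7.14%) against 7.20%. Such a match is a description of the letters and not of a bound site.

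The loci that changed state lay away from the member promoters, and of the 27 that closed with PD in at least 1 line 14 were in the Nlrc5 window. Nlrc5, on chromosome 8, had 27 loci in its window, of which 22 lay at no promoter of any gene. Of these 27, untreated Hdac7SA.Mef2d had 19 open. Hras.E1A had 18 open untreated, 9 with PD and 19 with TSA, and Hras.Myc had 20, 10 and 15. Thus PD closed 9 of 18 open loci in Hras.E1A and opened 0 of 9 (an upper limit of 33.6%), and closed 11 of 20 in Hras.Myc and opened 1 of 7. Over all loci of Hras.E1A PD closed 38.9% and opened 14.9%, and over those of Hras.Myc 38.4% and 18.4%, and since the Nlrc5 counts were known when the genes were chosen, nothing is read from their excess. At loci outside promoters, PD closed 8 of 13 Nlrc5 loci in Hras.E1A (61.5%, 31.6 to 86.1) and 11 of 15 in Hras.Myc (73.3%, 44.9 to 92.2). The shares over all loci outside promoters were 46.3% and 46.9%. With lists of equal length 21 loci were left in the window, and PD closed 4 of 10 and opened 1 of 11 in Hras.E1A, and closed 8 of 15 and opened 3 of 6 in Hras.Myc. The cut also removed untreated peaks, so a locus called opened under it may have been open in the full untreated list.

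**Figure D2:**
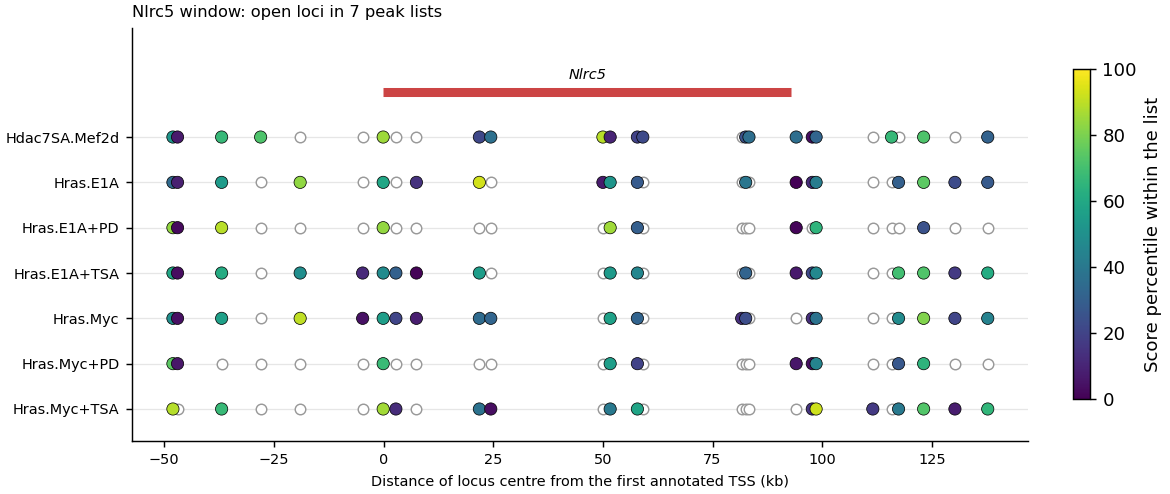
Loci in the Nlrc5 window by distance of the locus centre from the first annotated TSS (horizontal axis, kb) in each of the 7 peak lists (rows), with filled circles open and coloured by score percentile within the list, and white circles closed. The red bar is the gene body. The TSS locus is filled in all 7 rows, and the 2 PD rows have 9 and 10 filled circles against 18 and 20 in the untreated rows of the same lines.

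Closed in both lines with PD were 6 Nlrc5 loci, out of 16 open in both untreated lines (37.5%). The share over all loci open in both lines was 24.4%, and nothing is read from the excess. The 6 loci lay 18994 bp upstream, in introns 7498, 21846 and 82545 bp downstream, and in the downstream flank at 130220 and 137699 bp. The upstream locus (chr8:94415197-94415596) was at untreated percentiles of 83.3 (Hras.E1A) and 90.5 (Hras.Myc), and was open in the Hras.E1A TSA list (49.2) but in neither PD list and not in Hdac7SA.Mef2d. The intronic locus at 21846 bp (chr8:94456037-94456436) stood at 93.2 in Hras.E1A, 34.6 in Hras.Myc, 21.8 in Hdac7SA.Mef2d, 55.4 in the Hras.E1A TSA list and 37.6 in the Hras.Myc TSA list. It was thus open in every list but those with PD. The other 4 stood between percentiles 8.15 and 44.4 in the untreated Hras lists, and 3 of those 4 were the loci printed above with AP-1-type matches.

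The untreated lines differed at Nlrc5 loci in several ways. Open in Hras.Myc alone of the untreated lines were 3 loci, 4754 bp upstream and in introns 2820 and 81621 bp downstream, at percentiles 4.49, 20.4 and 13.5, and all 3 closed with PD. They were 3 of 20 open loci (15.0%, 3.21 to 37.9), against 6.21% of all loci. This count was known when the genes were chosen, so nothing is read from its excess. Open in Hdac7SA.Mef2d alone were 4 of 19 (21.1%, 6.05 to 45.6), against 42.6% of all loci. Open in both Hras lines but not in Hdac7SA.Mef2d were 4, of which PD closed 3 in both lines. No Nlrc5 locus was open in Hras.E1A alone (0 of 18, an upper limit of 18.5%), against 6.85% of all loci. Outside promoters, 3 loci were open in all 7 lists, in an intron at 51652 bp, in an exon at 57859 bp and in the downstream flank at 123089 bp. The locus 36893 bp upstream differed between the lines, since with PD it was absent in Hras.Myc but at percentile 89.3 in Hras.E1A, up from 54.4.

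The scores of the Nlrc5 loci that closed with PD covered a wide range. Outside promoters they ran from percentile 7.39 to 93.2 in untreated Hras.E1A, with a median of 29.0 against 52.0 for the 5 that were open with and without PD. In Hras.Myc they ran from 4.49 to 90.5, with a median of 23.3 against 52.5 for 4. Over all loci outside promoters, the medians were 45.5 for closed and 55.1 for kept loci in Hras.E1A, and 45.1 and 55.0 in Hras.Myc. The loci that closed were thus of lower score both near Nlrc5 and in general, and the part of peak strength in the closing was not tested.

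With TSA, Nlrc5 lost 1 of 18 loci in Hras.E1A, an exonic locus at 49999 bp with percentile 7.39, and gained the loci 4754 bp upstream and 2820 bp downstream. In Hras.Myc TSA closed 6 of 20 loci and opened 1, in the downstream flank at 111508 bp. Over all loci TSA closed 15.8% of those of Hras.E1A and 16.4% of those of Hras.Myc. The PD and TSA comparisons of a line share its untreated list, so their values are given side by side only. The gene body of Nlrc5, 92917 bp long, was the longest of the 8, and the part of length in the number of loci was not tested.

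Irf1, on chromosome 11, had 14 loci, of which 10 were open in Hdac7SA.Mef2d. Hras.E1A had 11 open untreated, 7 with PD and 8 with TSA, and Hras.Myc had 8, 9 and 10. PD closed 4 of 11 and opened 0 in Hras.E1A, and closed 1 of 8 and opened 2 in Hras.Myc. Over all loci PD closed 38.9% and opened 14.9% in Hras.E1A, and closed 38.4% and opened 18.4% in Hras.Myc. The downstream locus at 51512 bp (chr11:53821326-53821725) was open in the 3 untreated lists, at percentiles 32.1, 43.2 and 41.0, and in none of the 4 treated lists. A locus 14761 bp upstream (chr11:53755053-53755452), with an AP-1-type match, stood at 52.2 in Hdac7SA.Mef2d, 60.2 in Hras.E1A, 64.4 with TSA, 74.4 in Hras.Myc and 62.9 with TSA. With PD it was closed in Hras.E1A and at percentile 7.65 in Hras.Myc. A downstream locus at 33236 bp was open only in the treated Hras.Myc lists, at 70.4 with PD and 20.8 with TSA.

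B2m, on chromosome 2, had 10 loci, of which 8 were open in each untreated line. Hras.E1A had 8 open with PD and 7 with TSA, and Hras.Myc had 6 and 8. The downstream locus at 32546 bp (chr2:122180032-122180431) had one of the highest scores near any member, at percentile 99.0 in Hras.Myc, 49.9 in Hras.E1A and 21.7 in Hdac7SA.Mef2d. It closed with PD in both lines and with TSA in Hras.E1A, and stood at 73.9 with TSA in Hras.Myc. The locus at 24685 bp was at percentile 99.3 in Hdac7SA.Mef2d and closed in both untreated Hras lines, and was open elsewhere only with TSA in Hras.Myc, at 20.4. The locus at 16795 bp (chr2:122164281-122164680), which held ISRE-type, GAS-type and AP-1-type matches, went in opposite directions in the 2 lines. It was open in untreated Hras.Myc at percentile 12.2 and closed there with PD and TSA, and it was closed in untreated Hras.E1A and open at 1.11 with PD and 18.9 with TSA.

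The windows of Tap1, Tap2, Psmb8 and Psmb9 overlapped within the MHC on chromosome 17, and 12 of their 17 loci belonged to more than 1 window. They are described together. Of the 17, Hdac7SA.Mef2d had 16 open. Hras.E1A had 15 open untreated, 13 with PD and 16 with TSA, and Hras.Myc had 13, 11 and 13. PD closed 2 of 15 in Hras.E1A (13.3%, 1.66 to 40.5) and 2 of 13 in Hras.Myc (15.4%, 1.92 to 45.4), against 38.9% and 38.4% of all loci. None closed in both lines, against 24.4% of all loci open in both. Only 10 of the 17 lay outside promoters. There PD closed 2 of 8 (25.0%, 3.19 to 65.1) and 2 of 7 (28.6%, 3.67 to 71.0), against 46.3% and 46.9% of all such loci. In Hras.E1A these were the loci 46534 and 54291 bp downstream of the Tap2 TSS, at percentiles 48.5 and 15.3 untreated. In Hras.Myc they were a locus 18083 bp upstream of Tap1, at 26.2, and an intronic Tap2 locus, at 0.00886, among the lowest scores of the list. Downstream of Tap2, the loci at 15273 and 35302 bp were open in Hdac7SA.Mef2d and in all 3 Hras.E1A lists and in none of the 3 Hras.Myc lists. The second of them was the promoter of H2-Ob, a class II gene, and the loci in this stretch of the MHC also included promoters of H2-DMa, H2-DMb1 and H2-Ab1.

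Tapbp, also on chromosome 17 and at some distance from the other 4 genes, had 16 loci in a gene-dense stretch, of which Hdac7SA.Mef2d had 15 open. Hras.E1A had 13 open untreated, with PD and with TSA, and Hras.Myc had 14, 12 and 12. Of the 16, 11 were open in all 7 lists, as were 20.2% of all loci and 71.9% of all promoter loci. A locus at the Rgl2 promoter (chr17:33930553-33930952) closed in all 4 treatment comparisons, from percentiles 3.60 in Hras.E1A and 5.89 in Hras.Myc. The locus at 53478 bp (chr17:33972610-33973009) was the 1 member locus that opened with PD in both lines, at percentiles 10.0 in Hras.E1A and 16.2 in Hras.Myc.

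**Figure D3:**
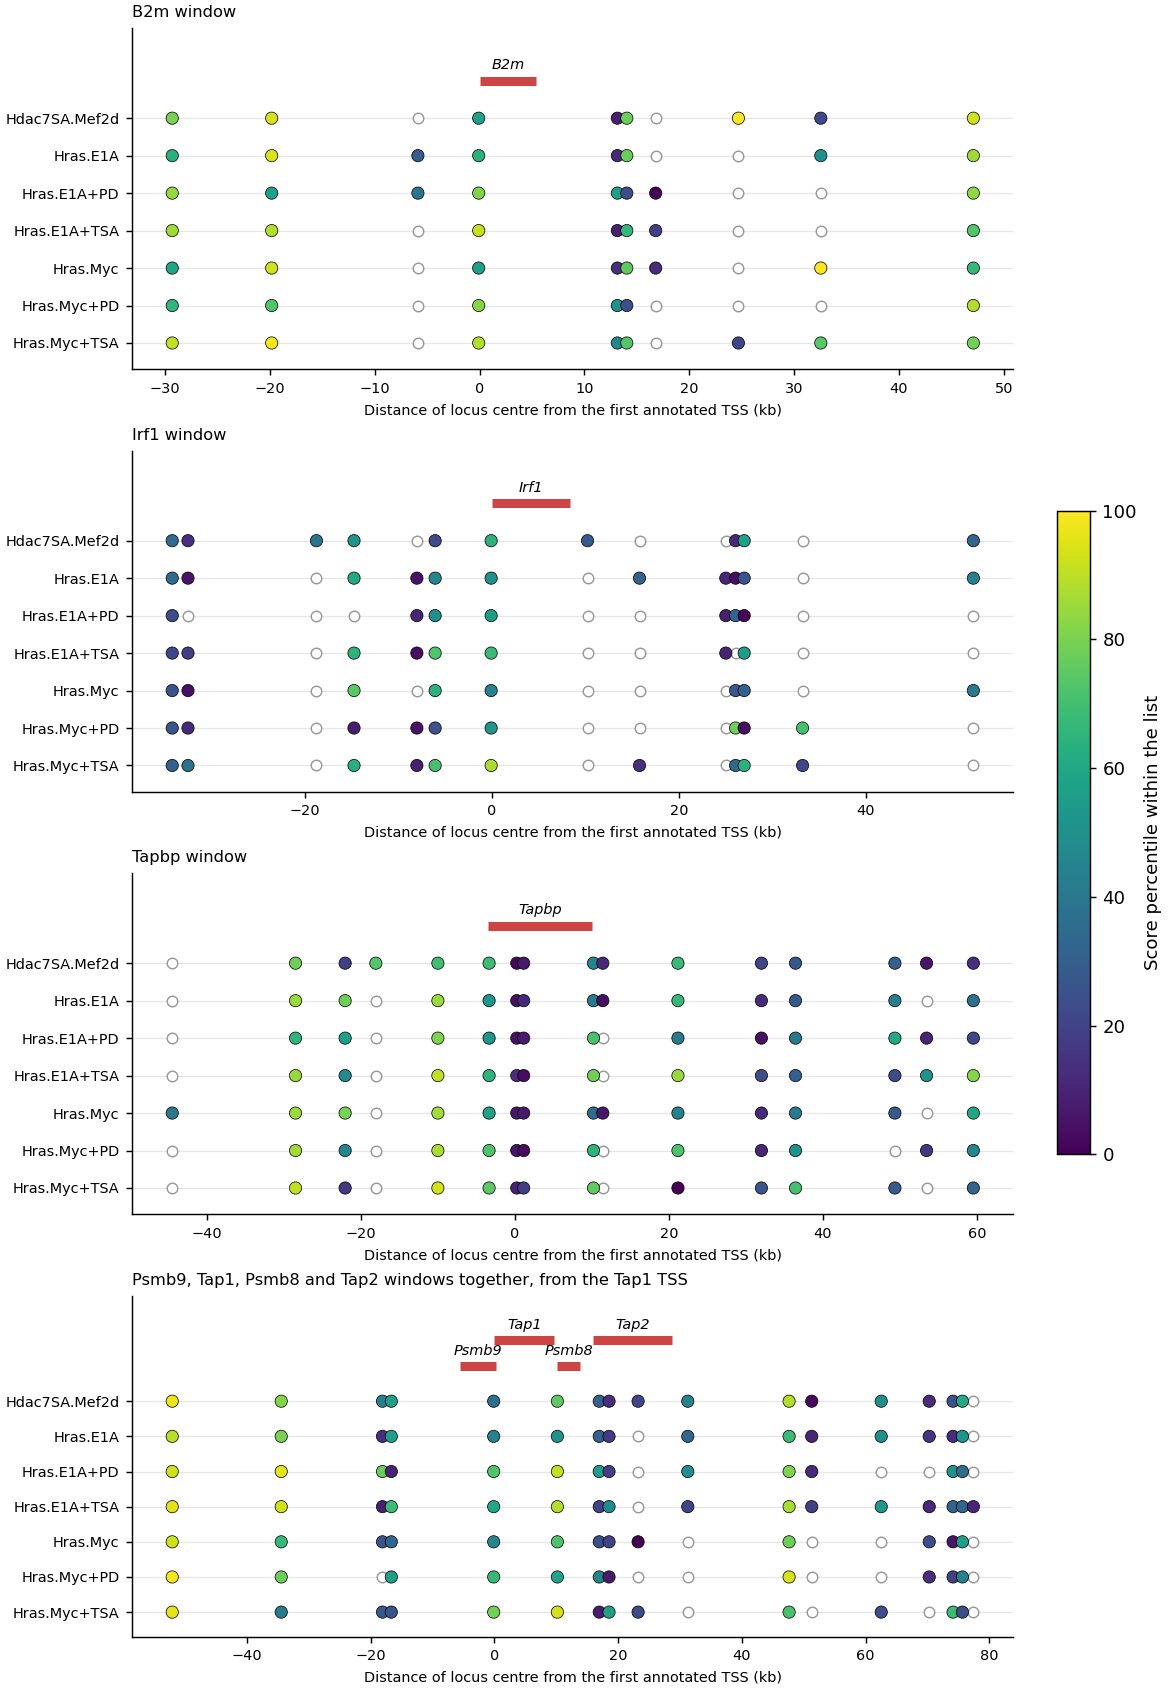
Loci in the B2m, Irf1 and Tapbp windows and in the joined windows of Psmb9, Tap1, Psmb8 and Tap2, by distance of the locus centre from the first annotated TSS of the named gene (horizontal axis, kb), in each of the 7 peak lists (rows). Filled circles are open loci coloured by score percentile within the list, white circles are closed loci, and red bars are gene bodies. The loci at the gene starts are filled in every row, and the joined windows have 13 of 17 circles filled in the Hras.E1A PD row and 11 of 17 in the Hras.Myc PD row.

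Over the 84 member loci together, Hdac7SA.Mef2d had 68 open. Hras.E1A had 65 open untreated, 50 with PD and 63 with TSA, and Hras.Myc had 63, 48 and 58. PD closed 17 of 65 in Hras.E1A (26.2%, 16.0 to 38.5) and 19 of 63 in Hras.Myc (30.2%, 19.2 to 43.0), against 38.9% and 38.4% of all loci. TSA closed 7 of 65 (10.8%, 4.44 to 20.9) and 11 of 63 (17.5%, 9.05 to 29.1), against 15.8% and 16.4%. PD opened 2 of 19 (10.5%) and 4 of 21 (19.0%), against 14.9% and 18.4%, and TSA opened 5 of 19 (26.3%) and 6 of 21 (28.6%), against 16.7% and 17.7%. Of the 84 loci 28 were promoters of some gene. The net loss with PD depended on the length of the lists. With lists of equal length the member loci open in Hras.E1A numbered 40 untreated and 44 with PD, since PD closed 9 of 40 and opened 13 of 33. In Hras.Myc they numbered 49 and 48, since PD closed 13 of 49 and opened 12 of 24. In the full lists PD opened only 2 and 4 member loci. Most loci called opened at equal length therefore had an untreated peak that the cut removed.

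Promoters and other loci were separated next. Outside promoters PD closed 15 of 38 member loci in Hras.E1A (39.5%, 24 to 56.6) and 17 of 36 in Hras.Myc (47.2%, 30.4 to 64.5), against 46.3% and 46.9% of all such loci. TSA closed 6 of 38 (15.8%) and 8 of 36 (22.2%), against 18.5% and 19.0%. At the promoters of any gene, PD closed 2 of 27 in each line (7.41%), against 6.98% and 7.16% of all promoter loci, and TSA closed 1 of 27 (3.70%) and 3 of 27 (11.1%), against 4.26% and 7.07%. Without the Nlrc5 window PD closed 8 of 47 loci in Hras.E1A (17%, 7.65 to 30.8) and 8 of 43 in Hras.Myc (18.6%, 8.39 to 33.4). Outside promoters this left 7 of 25 (28.0%, 12.1 to 49.4) and 6 of 21 (28.6%, 11.3 to 52.2). Of the 56 member loci open in both untreated Hras lines, PD closed 9 in both (16.1%), and 6 of these were in the Nlrc5 window, while 24.4% of all loci open in both lines did so.

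**Figure D4:**
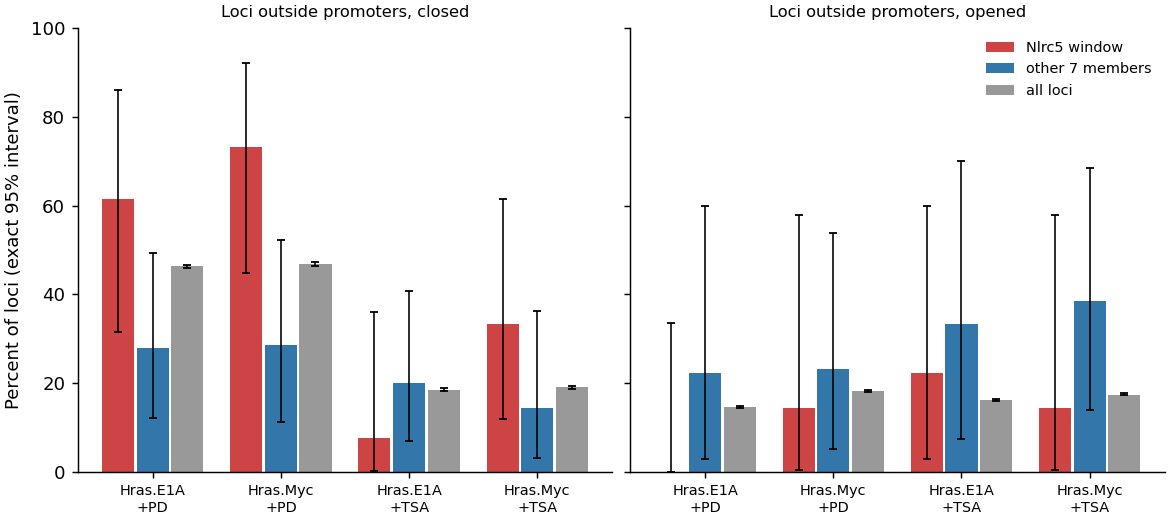
Percent of loci outside promoters (vertical axis) that closed (left, of those open untreated) or opened (right, of those closed untreated) with PD or TSA in each Hras line, for the Nlrc5 window, the windows of the other 7 members and all loci. Bars start at 0 and whiskers are exact 95% intervals for counting error. PD closed 61.5% and 73.3% of the Nlrc5 loci, 28.0% and 28.6% of the others and 46.3% and 46.9% of all loci in Hras.E1A and Hras.Myc.

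The untreated lines were then compared. Open in Hdac7SA.Mef2d and in neither untreated Hras line were 9 of 68 (13.2%, 6.23 to 23.6), against 42.6% of all loci. All 9 lay outside promoters, where they were 9 of 41 (22%, 10.6 to 37.6) against 48.0%. Open in Hras.E1A alone were 4 of 65 (6.15%, 1.70 to 15.0) against 6.85%, and in Hras.Myc alone 5 of 63 (7.94%, 2.63 to 17.6) against 6.21%. At the edge of the windows, the outermost Nlrc5 locus, 47755 bp from the gene, was open in 7 lists and the nearest locus outside, at 56384 bp, in 5. For B2m these loci lay at 41500 and 52113 bp and were open in 7 and 2 lists, and for Irf1 at 42951 and 62525 bp and open in 3 and 7 lists. For Tapbp they lay at 49397 and 50096 bp, both open in 7 lists. For the joined windows, the Tap2 locus at 48428 bp was open in 1 list, and beyond the windows of Tap1, Tap2, Psmb8 and Psmb9 the nearest loci were themselves members of a neighbouring window.

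The AP-1-type match was followed in relation to PD. Among member loci outside promoters, it was in 9 of the 24 that closed with PD in a line (37.5%, 18.8 to 59.4) and in 3 of the 20 that were open with and without PD (15.0%, 3.21 to 37.9). Over all loci outside promoters the shares were 52.7% and 21.1%. In the Nlrc5 window it was in 5 of 13 closed loci (38.5%, 13.9 to 68.4). The ISRE-type match was in 3 of the 24 closed member loci (12.5%, 2.66 to 32.4) and in 0 of the 20 kept (an upper limit of 16.8%), against 2.14% and 2.21% over all loci, and the 3 were the Nlrc5 loci at 82545 and 137699 bp and the B2m locus at 16795 bp, printed above. That B2m locus closed with PD in Hras.Myc but opened with PD in Hras.E1A, and it is also among the 9 with an AP-1-type match. The strongest PD-closed Nlrc5 loci, at 18994 bp upstream and 21846 bp downstream, held neither match in their central 200 bp.

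The other genes of the pathway were counted in the same windows, and their lists were set with results of these data known. The class I heavy chains, 12 genes that encode the peptide-binding chain and its relatives, had more loci closed than opened with PD at 11 genes in Hras.E1A and at 10 genes in Hras.Myc. Of all 20014 protein-coding genes with a locus, 69.4% and 61.5% also had more loci closed than opened. The heavy chain windows overlapped and held 68 different loci in total, so the same locus was counted at several genes. PD closed 20.8% and 27.7% of the open heavy chain loci in Hras.E1A and Hras.Myc, against 38.9% and 38.4% over all loci. A promoter locus changed with a treatment at 4 of the 12 heavy chain genes and at 0 of the 8 members. How many of all genes have such a change was not counted, and both sets are small. No difference between the heavy chains and the members is therefore read from these counts. H2-Q2 was open in Hras.E1A and closed with both treatments, and in Hras.Myc was closed with PD and open with TSA. H2-Q1 was closed in untreated Hras.Myc and open in its PD and TSA lists, H2-T23 closed with PD in Hras.Myc, and the number of open H2-Q10 promoter loci fell from 2 to 1 with PD in Hras.E1A. Around H2-Q6 no promoter locus changed, and within 10000 bp PD closed 1 locus in Hras.E1A and closed 2 and opened 1 in Hras.Myc. The H2-Q and H2-T genes are near-identical copies, so reads may have been placed on the wrong gene and these states are uncertain.

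In the lists below, a gene had an open promoter in all 7 lists if at least 1 promoter locus was open in each. The share of such genes over all genes was not counted, and 71.9% of all promoter loci were open in every list. Among 8 genes of peptide loading and trimming, PD closed 19.4% and 20% of open loci, against 38.9% and 38.4% over all loci. Of the 8 genes, 7 had an open promoter in all 7 lists. The exception was Psmb10, the third catalytic subunit of the immunoproteasome, whose promoter was open in 1 list, Hras.E1A with TSA. Erap1, which trims peptides in the endoplasmic reticulum, had 1 of 2 promoter loci open in untreated Hras.Myc and both with TSA. The chaperones Calr and Canx and the tapasin relative Tapbpl had 2, 3 and 2 changes with PD within 10000 bp. The constitutive catalytic subunits, which Psmb8 and Psmb9 replace or accompany, were Psmb5, Psmb6 and Psmb7. All 3 had promoters open in every list, PD closed 20.5% and 30.8% of their open loci, and within 10000 bp the changes with PD numbered 2, 0 and 7.

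Among 5 class II genes and their transactivator Ciita, which share 17 loci with the members, PD closed 14.9% and 15.0%, against 38.9% and 38.4% over all loci. The promoter of Ciita, the class II counterpart of Nlrc5, was open in Hdac7SA.Mef2d alone of the 7 lists, in contrast to the Nlrc5 promoter, open in all 7. The antigen-presenting chain gene H2-Ab1 and the peptide-exchange genes H2-DMa and H2-DMb1 had 2, 2 and 1 changes with PD within 10000 bp, and H2-DMa had 1 open promoter locus in untreated Hras.Myc and 2 in its treated lists. The 7 enhanceosome genes, whose products bind class I and class II promoters with the transactivators, all had promoters open in 7 lists. PD closed 26.9% and 25.0% of their loci, with 4 changes at Creb1, 2 at Nfyc and 1 at Rfxap.

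Among 17 genes of interferon and NF-kappaB signalling, which act upstream of Nlrc5 and Irf1, PD closed 35.6% of the open loci of Hras.E1A and 30.5% of those of Hras.Myc. The shares over all loci were 38.9% and 38.4%. All 17 had an open promoter in every list, a looser count than the 71.9% of all promoter loci that were open in every list. Of the 17 genes, 13 and 12 had more loci closed than opened, against 69.4% and 61.5% of all protein-coding genes with a locus. The most changes with PD within 10000 bp were at Irf2, a partner and antagonist of Irf1 (11), at the kinase genes Jak1 (11) and Jak2 (6), and at Nfkb1 (9). Irf2 had 2 open promoter loci in each untreated line and 1 with PD. Irf3 and Irf7, which act in the interferon response, and Socs1, a feedback inhibitor of Jak kinases, also had between 1 and 2 open promoter loci, with a change in at least 1 comparison. For comparison, a median protein-coding gene had 28.6% of its open loci closed with PD in each line, and the median member 10.8% in Hras.E1A and 21.8% in Hras.Myc. The member median counts shared loci more than once, since the windows of Tap1, Tap2, Psmb8 and Psmb9 overlapped.

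The genes most like Nlrc5 were found by the distance between the shares of loci open in each of the 7 lists, over 8910 genes with at least 5 loci within 10000 bp of the gene body. Nlrc5 itself had 16 such loci, of which 12, 10, 5, 11, 12, 6 and 8 were open in the order of lists used above. The nearest were Col4a1, a basement membrane collagen chain (distance 0.0927, 21 loci), Atp9b, a phospholipid flippase (0.130, 17 loci), and Kif16b, a kinesin motor (0.146, 23 loci). At Col4a1 PD closed 7 of 14 loci in Hras.E1A and 8 of 15 in Hras.Myc, and at Nlrc5 in the same range it closed 5 of 10 and 7 of 12. No other member was among the 3, but B2m, Tap1, Psmb8 and Psmb9 had fewer than 5 loci in that range and were not compared.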

How the data were processed

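ATAC-seq marks open chromatin by the insertion of sequencing adapters by Tn5 transposase. The 12 libraries of 7 groups were deposited as 7 peak lists, with 1 list for each group, so replicates were pooled before deposit. Alignment to mm10 with Bowtie2 2.4.5 and peak calling with MACS2 2.2.7.1 are named in the submitters' processing notes. According to the study's methods, low-scoring peaks were recovered afterwards by sharing peaks between samples (redefine_peaks), so the lists are not independent. All peaks spanned 400 bp. The score of each peak, deposited by the authors, has no stated scale and was therefore turned into a percentile among the peaks of its list. No read counts were used and depth is unknown, so a closed locus may still hold reads.

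Peaks on the 19 autosomes, X and Y that overlapped by 1 bp or more were merged into loci. A locus was open in a list with a peak overlapping it. A locus with a peak before but not after treatment was called closed, and one with a peak after but not before was called opened. Promoter loci were those within 1000 bp of a protein-coding transcription start (TSS) in the GENCODE M21 basic annotation. The member windows were the gene bodies and 50000 bp either side. GRCm38.p6, the assembly behind mm10, gave the sequences, which were read as RefSeq promoters or from the central 200 bp of loci. Motifs were searched on both strands.

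The members, the other gene lists, the markers and the motifs were chosen with earlier results of these data known. Genes named besides the members were, from each list, up to 4 with most loci changed with PD within 10000 bp of the gene body (ties by symbol), those with a changed promoter locus, and the 3 genes most like Nlrc5 in the share of loci open in each list, among genes with at least 5 such loci. With 1 list for each group no test was possible, and shares carry exact (Clopper-Pearson) 95% intervals. The intervals cover counting error only and treat loci as independent. The locus calling was tested on simulated lists. Alternatives were windows of 10000 and 100000 bp, a peak covering 50% of the locus, closed loci without a treated peak within 500 bp, lists cut to their upper 80% of scores, lists of equal length, loci outside promoters only and a motif window of 100 bp. Python 3.11.15, pandas 2.3.3, numpy 2.4.6, scipy 1.17.1 and matplotlib 3.10.9 were used.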

Additional observations from a re-analysis of the deposited data

Results flagged for a closer look

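At 3 member loci a treatment changed the state in opposite directions in the 2 Hras lines. The B2m locus at 16795 bp (chr2:122164281-122164680) opened with PD in Hras.E1A, with a score of 1.35, and closed in Hras.Myc, from a score of 2.58. With TSA it opened in Hras.E1A, with a score of 3.10, and closed in Hras.Myc, again from 2.58. The Nlrc5 locus 4754 bp upstream (chr8:94429437-94429836) opened with TSA in Hras.E1A, with a score of 2.38, and closed in Hras.Myc, from 1.69. The Irf1 locus at 15788 bp (chr11:53785602-53786001) opened with TSA in Hras.Myc, with a score of 2.38, and closed in Hras.E1A, from 4.43. The percentiles of these scores lay between 1.11 and 30.8 within their lists, and the difference was not tested, since each group has 1 list.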

How the results depend on the processing

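No paired analysis was possible because each group has 1 peak list, and no replicate could be left out for the same reason. Of 99 alternative values of the 11 shares of member loci, 90 stayed within the exact interval of the reported value and 9 did not. The 90 include the 11 values for a peak covering 50% of the locus. These could not change, because member loci were as wide as the peaks. The intervals were wide and the alternatives reused the same loci, so staying within them is a weak check. Without promoters PD closed 39.5% (Hras.E1A) and 47.2% (Hras.Myc). With lists of equal length, cut to the highest 56774 scores, PD opened 39.4% (Hras.E1A) and 50.0% (Hras.Myc), and 22.4% were open in untreated Hras.Myc alone. The shares of all loci under that setting were 31.5%, 31.7% and 20.3%, so they moved as well. Under it PD closed 9 and opened 13 member loci in Hras.E1A, and closed 13 and opened 12 in Hras.Myc, so the net loss of the full lists was not seen. In the full lists PD opened 2 and 4, so most of these loci had an untreated peak that the cut removed. Of the 8 member promoter loci, 4 were then open in all 7 lists. With the upper 80% of scores in each list, 25.0% were open in Hdac7SA.Mef2d alone. With windows of 10000 bp, PD opened 0 of 8 loci in Hras.E1A. Chosen after seeing the data were 2 alternatives: without the Nlrc5 window PD closed 18.6% in Hras.Myc, and with only the loci whose nearest TSS is a member's PD opened 0 of 8 in Hras.E1A. In the central 100 bp the kappaB-type match was in 11.9% of member loci against 4.93% of all loci, the CRE (TGACGTCA) in 0 of 84, and the ISRE-type match in 1 of the 8 member promoter loci, from 4. Depth is unknown, the counts are small, and the lists share peak positions. A locus without a peak may hold reads below the calling threshold.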
